A study of Homo sapiens with 12 samples.

Results

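Keratins and epithelial adhesion genes were followed as 10 transcripts taken by symbol from the expression table: the type II keratins KRT7, KRT8, KRT80 and KRT81, the type I keratins KRT18 and KRT19, and the adhesion genes EPCAM, CDH1, CLDN1 and TJP1. They are 10 of the 57152 genes with values, and all 10 were among the 13968 with a mean of at least 1 TPM (a level scaled for transcript length and library total) that were tested. RNA was sequenced from A549, an established line of human lung adenocarcinoma, and from a line called LB, whose source is labelled as A549 and whose making the labels do not describe. There were 4 groups of 3 libraries: A549 with vehicle (A549 DMSO), LB with vehicle (LB DMSO), LB with amiodarone, and LB with amiodarone plus HPbCD. All cells were cultured for 24 h after seeding and then treated for 24 h. The vehicle was 0.1% DMSO, amiodarone, a cationic amphiphilic antiarrhythmic drug, was given at 10 µM, and HPbCD (hydroxypropyl-beta-cyclodextrin, a ring of sugars that carries cholesterol) was present at 10 mg/ml from seeding. The study asked whether HPbCD relieves what amiodarone does to alveolar cells. LB cells with HPbCD alone and A549 cells with amiodarone were not analysed here, so HPbCD was measured only beside the drug. Whether replicates are separate cultures is not labelled; p-values therefore reflect the spread among these libraries alone, which may be technical.

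Keratins build the intermediate filaments of epithelial cells, and a filament needs a type I and a type II keratin, which pair as obligate partners. KRT8 with KRT18 is the basic pair of simple epithelia such as the alveolar lining, where KRT7 and KRT19 are added, while KRT81 is best known from hair. E-cadherin (CDH1) holds neighbouring cells together at adherens junctions, claudin 1 (CLDN1) seals the space between cells at tight junctions, ZO-1 (TJP1) ties tight junctions to actin, and EPCAM is a surface glycoprotein of epithelial cells.

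The epithelial label was checked on markers. KRT8 and KRT18 measured at least 991 TPM in every library, and CDH1 lay between 7.29 and 33.2 TPM. These 3 genes belong to the set itself, and other genes did not go with the label. EPCAM lay between 1.13 and 12.1 TPM, and the epithelial factors ESRP1 and GRHL2 were at most 0.62 and 0.01 TPM. The intermediate filament gene VIM, abundant in mesenchymal cells, lay between 685 and 1195 TPM. The markers thus gave a mixed picture. The summed level of 6 endothelial markers was at most 0.89 TPM and that of 6 leukocyte markers at most 5.85 TPM, nearly all of it CD14. The summed level of 10 alveolar type II markers was 45.1 to 47.4 TPM in A549 DMSO and 1388 to 1551 TPM in LB DMSO. In A549 DMSO 4 of these 10, among them SFTPB, were at 0 in every library, and in LB DMSO 1 was (SFTPA1). Most of the LB DMSO sum came from SFTPC, ABCA3, SFTPD and SFTPB (means 590, 314, 300 and 247 TPM). There SFTPA2, SLC34A2 and LAMP3 averaged at most 0.32 TPM. NAPSA (2.50 TPM in A549 DMSO and 2.96 TPM in LB DMSO) and ETV5 (23.7 and 24.9 TPM) differed little. Sums of 3 other lists were lower in LB DMSO without overlap: alveolar type I (538 to 719 TPM in A549 and 265 to 316 TPM in LB), airway secretory (33.7 to 46.0 and 17.1 to 24.3 TPM) and ciliated (25.1 to 32.3 and 20.4 to 23.3 TPM). Such sums rest on a few abundant genes, as the ciliated sum does on TPPP3 (22.0 TPM in A549 and 17.1 TPM in LB). Some low markers of these lists were higher in LB DMSO, among them AGER (2.86 and 3.61 TPM), BPIFA1 (0 and 1.90 TPM) and PIFO (0.39 and 0.72 TPM). The part of all these markers in the differences between the lines was not tested. Of the airway basal markers, KRT5 and KRT14 did not exceed 0.14 TPM in any library. Library sums of TPM were nearly equal (999449 to 999632), which the scaling of TPM itself brings about. Read depth is unknown because TPM does not keep it. In such bulk samples fewer cells of a type and less RNA per cell cannot be told apart.

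Promoters of CLDN1 and TJP1 are shown because these tight junction genes differed in opposite directions between the lines. RefSeq sequences of GRCh38.p14 were matched by symbol for 3 of the 10 genes (CLDN1, TJP1 and KRT8). The 250 bases before the start are given 5′ to 3′ on the gene's own strand, with capitals for matches to the GC box GGGCGG or the E-box CACCTG, the letters bound by SNAI and ZEB repressors, on either strand. The CLDN1 window is chr3:190322447-190322696, minus strand, and the TJP1 window, the first of 4 starts in the table, is chr15:29969050-29969299, minus strand.
CLDN1: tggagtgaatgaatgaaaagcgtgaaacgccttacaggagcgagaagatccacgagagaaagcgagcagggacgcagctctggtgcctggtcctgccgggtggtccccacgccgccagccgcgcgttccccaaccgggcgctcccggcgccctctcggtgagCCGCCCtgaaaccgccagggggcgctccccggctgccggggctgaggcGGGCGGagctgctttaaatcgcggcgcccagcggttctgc
TJP1: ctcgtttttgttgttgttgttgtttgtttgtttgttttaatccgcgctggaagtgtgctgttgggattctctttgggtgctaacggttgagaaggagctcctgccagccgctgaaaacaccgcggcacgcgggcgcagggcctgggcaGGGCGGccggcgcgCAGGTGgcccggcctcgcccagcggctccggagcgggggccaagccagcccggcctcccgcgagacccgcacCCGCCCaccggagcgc
Both windows hold a pair of GC boxes, 88 and 40 bases before the start in CLDN1 and 102 and 16 bases before it in TJP1. Of all 35116 promoters in the table, 42.6% hold at least 1 GC box and 24.3% hold 2 or more. The E-box occurs in the TJP1 window, on the opposite strand 88 bases before the start, and not in that of CLDN1; 17.5% of all promoters hold it. The AP-1 letters TGANTCA (6.57% of all promoters), the TATA box TATAAA (10.7%) and the CCAAT box (32.0%) were in neither. GC content was 68.8% in the CLDN1 window and 66.8% in that of TJP1. The KRT8 window (chr12:52926470-52926719, minus strand), with 50.4% GC, held none of these 5 motifs. It is the only start listed for KRT8 and lies inside the gene model of GENCODE 29 (chr12:52897187-52949954). Other starts of KRT8 were not examined, so this window may not stand for its main promoter. A match describes letters only.

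**Figure D1:**
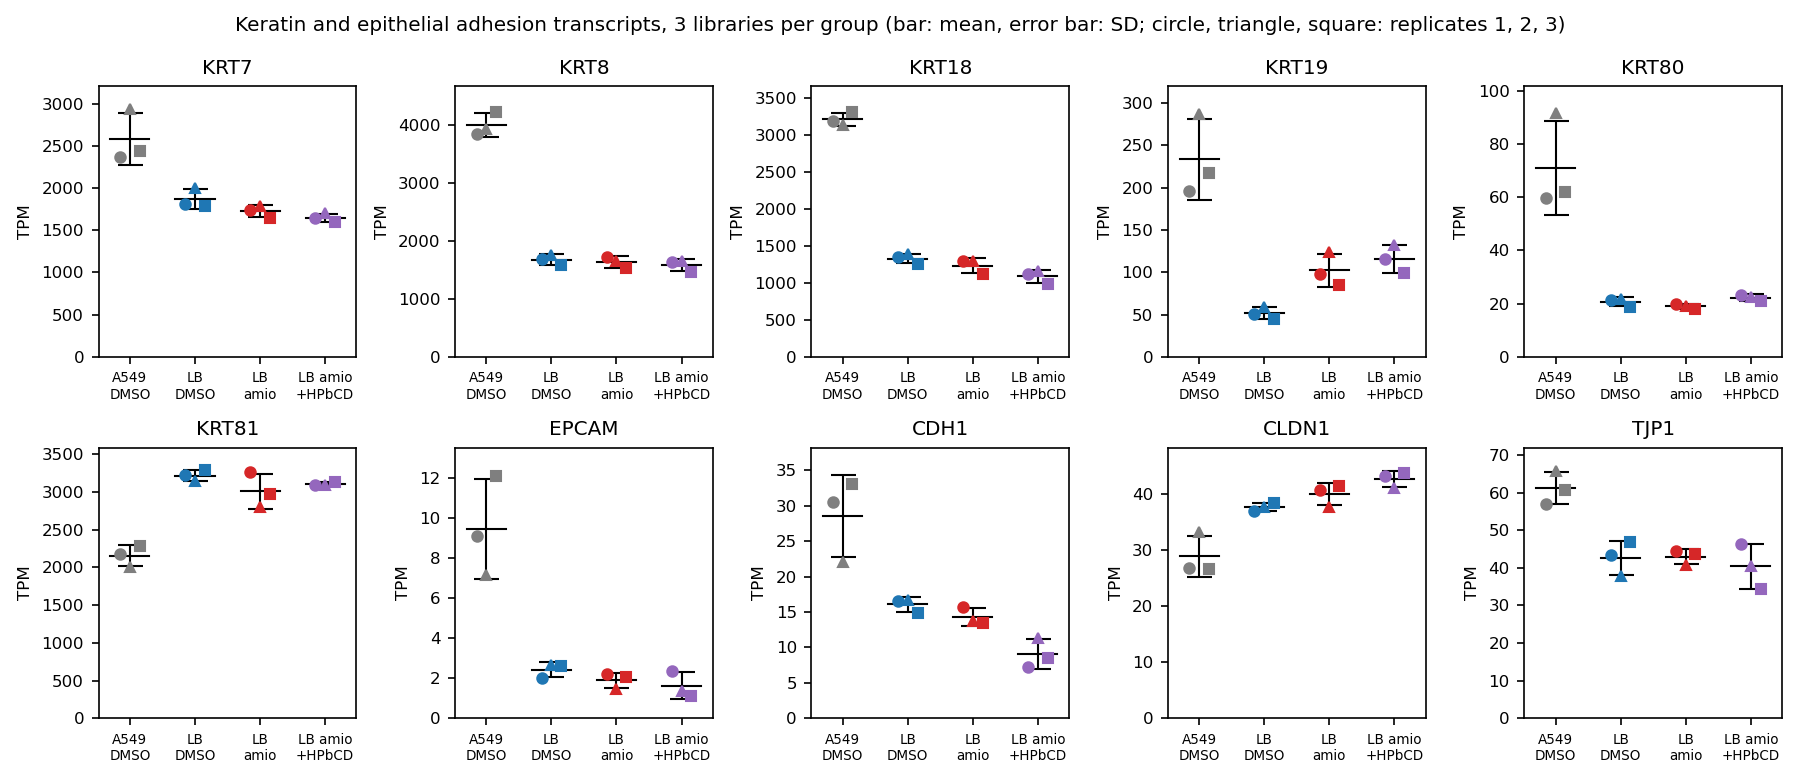
TPM of the 10 genes in each library (vertical axes, from 0) for the 4 groups (horizontal axes); bars are means with SD of 3 libraries and symbols are replicates 1 to 3. In 8 panels the A549 DMSO libraries lie above every LB DMSO library, in the panels of KRT81 and CLDN1 they lie below, and KRT19 is the gene whose LB libraries with amiodarone all lie above those with vehicle.

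Under vehicle, LB cells had lower levels than A549 of 8 of the 10 genes and higher levels of KRT81 and CLDN1. Every one of these differences passed the test (limma on log2(TPM + 1), two-sided, Benjamini-Hochberg adjusted p under 0.05 over all 13968 genes). In none did the groups overlap, but the share of all genes tested without such overlap was not computed. Of all genes tested, 14.2% were called higher and 18.2% lower, beside 2 of 10 higher, close to that share, and 8 of 10 lower. The 10 genes were chosen with earlier results of these data known, so the larger share of lower genes is a description and no test of enrichment. The median log2 difference was -1.02 over the 10 genes and -0.04 over all genes tested. Log2 differences are of log2(TPM + 1), so the change of low genes such as EPCAM is understated.

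Among type II keratins, KRT8 fell most in absolute level. It measured 3831, 3931 and 4221 TPM in the 3 A549 DMSO libraries and 1685, 1760.4 and 1576 TPM in LB DMSO. The lowest A549 library was thus far above the highest LB library, and the difference was -1.25 on the log2 scale (SE 0.0633, adjusted p = 2.48e-08). KRT7, a keratin of simple and glandular epithelia, measured 2366, 2933 and 2444 TPM in A549 and 1814, 2007 and 1785 TPM in LB. Its groups lay closer, with a log2 difference of -0.46 (SE 0.0737, adjusted p = 0.000425). KRT80, a type II keratin linked to desmosomes, measured 59.8, 91.5 and 62.1 TPM in A549 and 21.3, 21.9 and 18.9 TPM in LB, a log2 difference of -1.71 (SE 0.131, adjusted p = 1.00e-06). KRT81 went the other way: it measured 2182, 2004 and 2283 TPM in A549 and 3225, 3140.4 and 3286 TPM in LB, a log2 difference of 0.58 (SE 0.0576, adjusted p = 9.62e-06). KRT81 was thereby the 74th most abundant gene of the whole table in A549 DMSO and the 34th in LB DMSO, while KRT8 went from 23rd to 95th.

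Both type I keratins fell. KRT18, the partner of KRT8, measured 3187, 3137 and 3308 TPM in A549 and 1345, 1385 and 1256 TPM in LB. Its log2 difference of -1.27 (SE 0.0682, adjusted p = 4.37e-08) lay within 1 SE of that of KRT8. KRT19, which lacks most of the tail domain of other keratins, measured 196.0, 287 and 217 TPM in A549 and 50.0, 59.0 and 45.1 TPM in LB. This was the largest difference among the 10 genes, -2.15 on the log2 scale (SE 0.165, adjusted p = 9.70e-07), and it moved KRT19 from rank 608 to rank 2884 among all genes.

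Of the adhesion genes, EPCAM was the least abundant and differed most. It measured 9.11, 7.17 and 12.1 TPM in A549 and 2.02, 2.68 and 2.60 TPM in LB, a log2 difference of -1.59 (SE 0.205, adjusted p = 8.33e-05). CDH1 measured 30.5, 22.1 and 33.2 TPM in A549 and 16.6, 16.8 and 14.9 TPM in LB, a log2 difference of -0.78 (SE 0.158, adjusted p = 0.00240). Neither gene's groups overlapped, with gaps of several TPM between the lowest A549 and the highest LB library. The tight junction genes split. TJP1 measured 57.1, 65.7 and 60.7 TPM in A549 and 43.4, 37.7 and 46.8 TPM in LB (log2 difference -0.51, SE 0.104, adjusted p = 0.00231). CLDN1 measured 26.7, 33.1 and 26.7 TPM in A549 and 37.0, 37.7 and 38.4 TPM in LB (log2 difference 0.38, SE 0.0783, adjusted p = 0.00249), so that every LB library lay above the highest A549 library.

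A549 replicate 2 stood apart in these genes: of the 3 A549 libraries it was the highest for KRT7, KRT80, KRT19, CLDN1 and TJP1 and the lowest for KRT81, KRT18, CDH1 and EPCAM. Without it the log2 difference from LB DMSO was -0.37 for KRT7, -1.99 for KRT19, -1.51 for KRT80, -0.94 for CDH1 and 0.48 for CLDN1, and all 10 genes still passed the test.

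**Figure D2:**
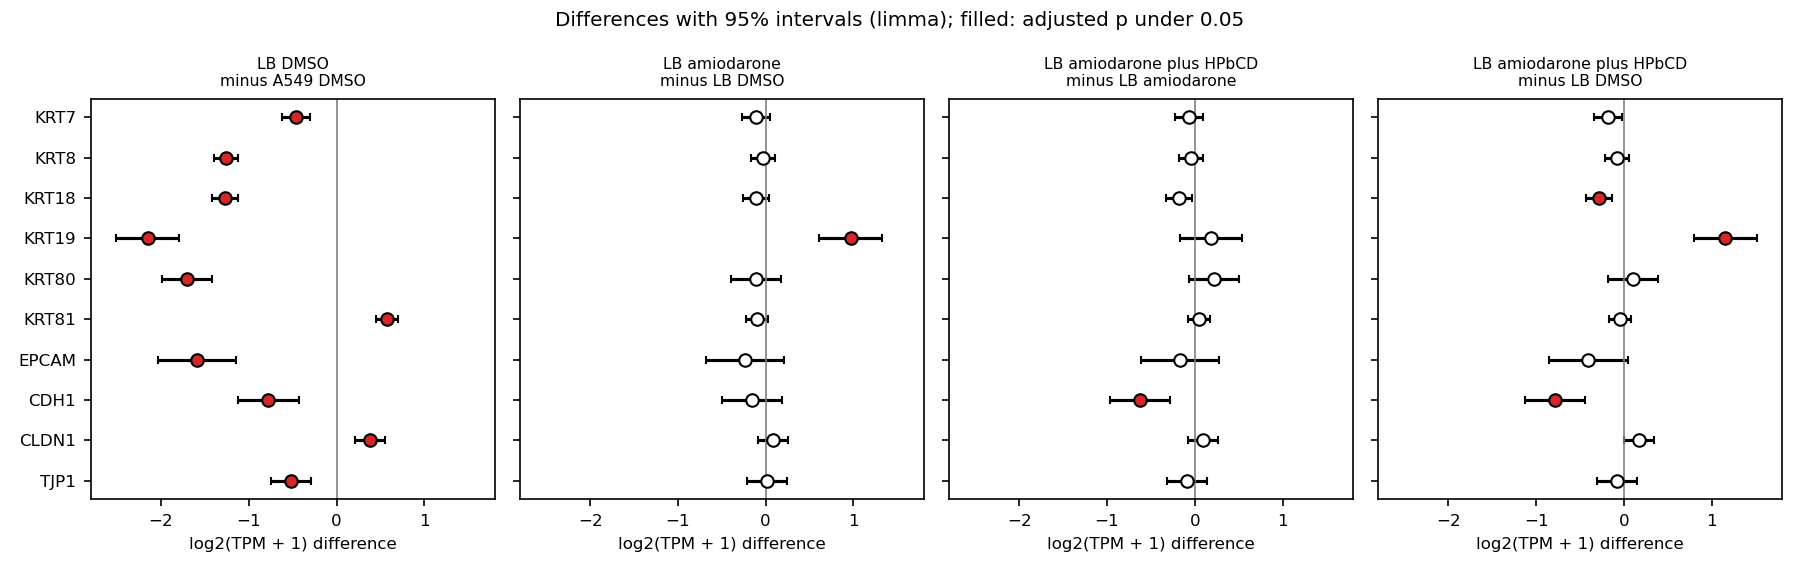
Log2(TPM + 1) differences (horizontal axes) of the 10 genes (vertical axis) in the 4 comparisons, with 95% intervals from limma; filled points have an adjusted p under 0.05. All 10 points are filled for LB DMSO minus A549 DMSO, 1 (KRT19) for amiodarone minus vehicle, 1 (CDH1) for HPbCD added to amiodarone, and 3 (KRT18, KRT19, CDH1) for both agents against vehicle.

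The unequal changes altered the keratin makeup. The 6 keratins summed to 12247 ± 376 TPM (SD, n = 3) in A549 DMSO and 8160.0 ± 204 TPM in LB DMSO. KRT81 made up 17.6% ± 1.25 of that sum in A549 and 39.5% ± 1.87 in LB, while KRT8 went from 32.6% ± 0.978 to 20.5% ± 0.645 and KRT18 from 26.2% ± 0.826 to 16.3% ± 0.443. The ratio of KRT8 to KRT18 was 1.20, 1.25 and 1.28 in the A549 libraries and 1.25, 1.27 and 1.25 in LB DMSO. The pair thus fell in the same proportion, with ratios that overlap between the lines. The sum of the 4 type II genes over the 2 type I genes was 2.49, 2.62 and 2.56 in A549 and 4.83, 4.80 and 5.12 in LB DMSO, without overlap. These ratios were not tested and are given as descriptions.

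**Figure D3:**
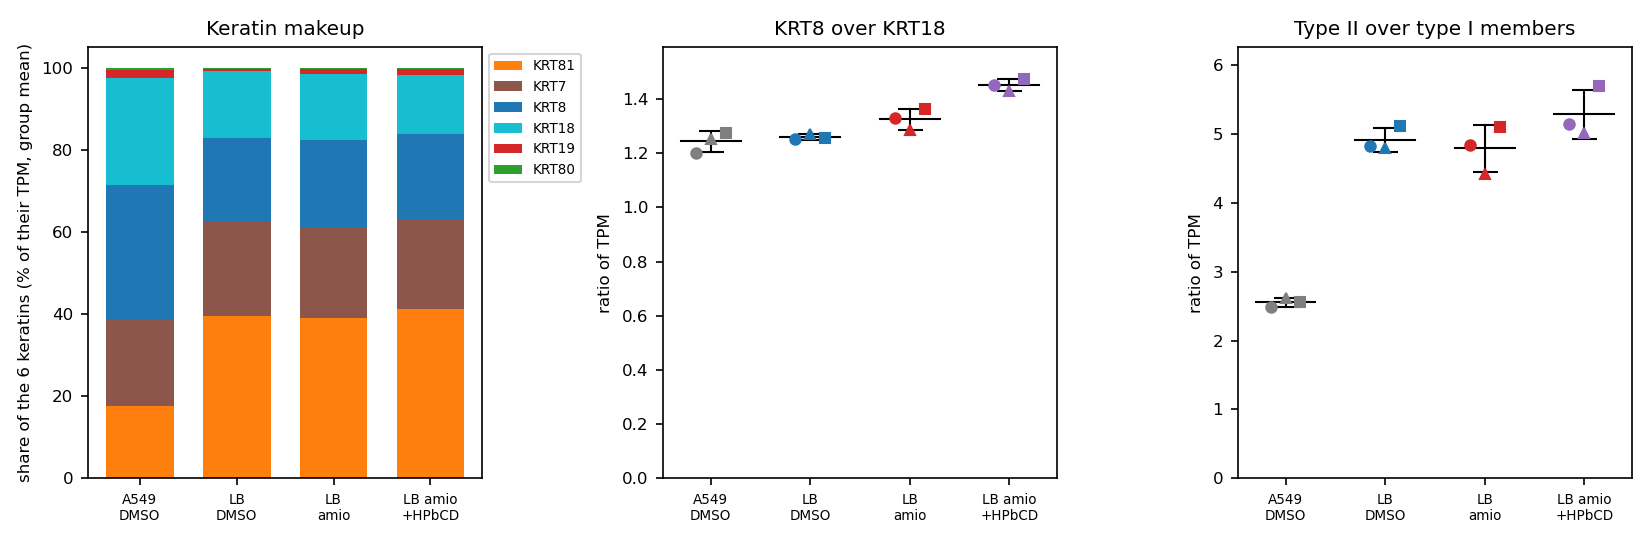
Left, share of each keratin in the summed TPM of the 6 keratins (vertical axis, %, group means); middle and right, ratios of TPM in each library, with the mean and SD of 3 libraries and symbols for replicates 1 to 3. KRT81 takes 17.6% of the bar in A549 DMSO and 39.5% in LB DMSO, and the KRT8 over KRT18 ratio is at least 1.43 in every library with HPbCD and at most 1.36 in every other library.

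The 6 keratins carried 97.0 to 98.5% of the TPM of the 55 keratin genes in the table, of which 13 had a mean of at least 1 TPM and 12 were at 0 in every library. KRT5 and KRT14, the pair of basal cells in stratified epithelia, were among those below it. In GENCODE 29 (GRCh38), 27 of the 55 genes lie on chromosome 12 within 784 kb (chr12:52168996-52952901), where all type II keratins and KRT18 are found. KRT80 (chr12:52168996-52192000) opens the cluster and KRT8 (chr12:52897187-52949954) and KRT18 (chr12:52948871-52952901) close it, and 9 of the 27 had a mean of at least 1 TPM. The expressed genes sit at the ends: KRT80, KRT7 (chr12:52232520-52252186), KRT86, KRT81 (chr12:52285913-52291534), KRT83 and KRT85 at one side and KRT8 and KRT18 at the other, with KRT4 between them. Of the other members, KRT19 lies on chromosome 17 (chr17:41523617-41528308), EPCAM on chromosome 2 (chr2:47345158-47387601), CDH1 on chromosome 16 (chr16:68737225-68835548), CLDN1 on chromosome 3 (chr3:190305701-190322475) and TJP1 on chromosome 15 (chr15:29699367-29968865).

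**Figure D4:**
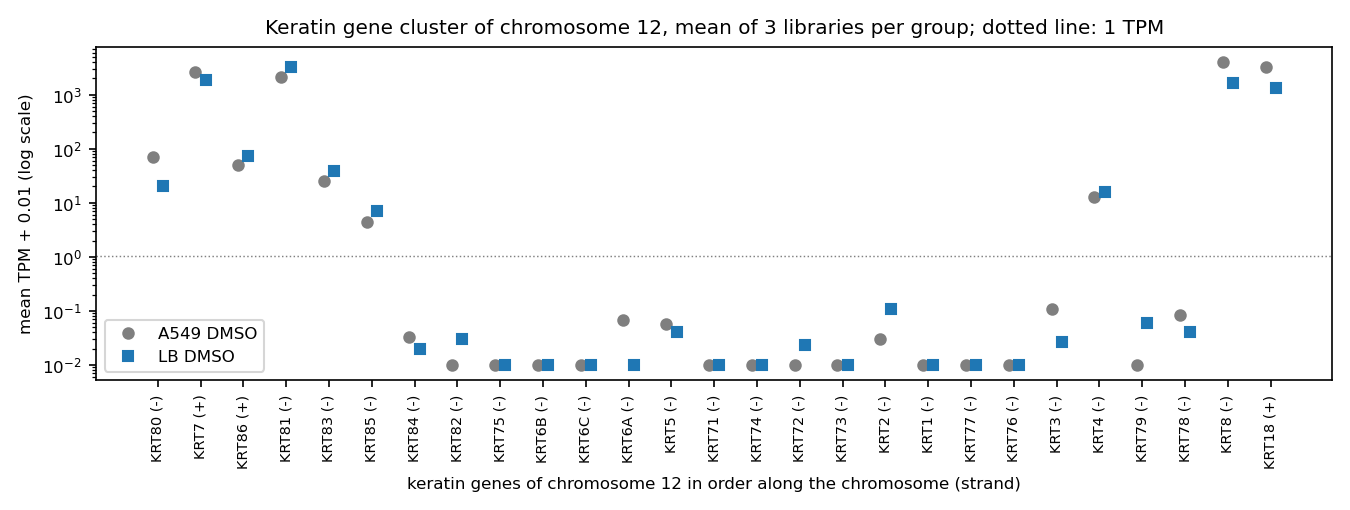
Mean TPM + 0.01 of 3 libraries (vertical axis, log scale) of the 27 keratin genes of chromosome 12 in their order along the chromosome (horizontal axis, strand in brackets), in A549 DMSO and LB DMSO. KRT81, KRT83, KRT85 and KRT86 lie higher in LB DMSO, while KRT80, KRT7, KRT8 and KRT18 lie higher in A549 DMSO.

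The hair keratin genes next to KRT81 differed in its direction, while KRT7 and KRT80 on the far side of KRT86 went the other way. Of 37 other keratins fixed as a list, 7 were tested, of which 3 were higher in LB DMSO (KRT83, KRT85 and KRT86, all hair keratins). Of the rest, 2 were lower (KRT10 and KRT15) and 2 did not pass (KRT4 and KRT20). Among all genes tested 14.2% were higher and 18.2% lower. KRT86 went from 49.1 ± 3.16 to 72.4 ± 3.03 TPM (log2 difference 0.55 with SE 0.0769, adjusted p = 0.000157) and KRT83 from 24.9 ± 3.71 to 39.4 ± 1.70 TPM (log2 difference 0.65 with SE 0.0912, adjusted p = 0.000158). KRT85 went from 4.34 ± 0.599 to 7.14 ± 0.490 TPM (log2 difference 0.61 with SE 0.107, adjusted p = 0.000803). KRT15, a keratin of basal cells, went from 6.10 ± 2.53 to 1.28 ± 0.890 TPM (log2 difference -1.67 with SE 0.305, adjusted p = 0.00115). Reads of these neighbours are not all unique. Of all 100-base windows of the KRT81 transcript, 30.3% occur in other genes, 29.4% in KRT86, whose gene model on the opposite strand spans the whole of KRT81 (5622 shared bases), and how the authors' counting treated strand is not stated in the labels. The division of reads between KRT81 and KRT86 is therefore uncertain. Summed with KRT83 and KRT86, KRT81 kept its log2 difference of 0.58. KRT83 and KRT86 together were 3.24 to 3.67% of that sum.

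For the other 9 genes no 100-base window of the longest protein-coding transcript occurred in a transcript of another gene, each read in its own direction. Matches to the opposite strand were not looked for. KRT8 and KRT18 overlap by 1084 bases on opposite strands. The 67 KRT18 pseudogenes of the table took 5.43 to 5.88% of the level of KRT18 and its copies, and the 50 KRT8 pseudogenes took 0.258 to 0.719%, so that summing them left the differences at -1.27 and -1.25. The 5 KRT19 pseudogenes were listed at 0.

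Beyond the 10 genes, junction components called lower in LB DMSO outnumbered those called higher in each structure examined, beside 18.2% and 14.2% of all genes. Of 23 tight junction genes tested, 9 were lower, 1 was higher and 13 did not pass (median log2 difference -0.24). The lower call of MPP5 was lost in 7 of 23 alternatives, reaching an adjusted p of 0.101 without LB DMSO replicate 2. CLDN2, a claudin that forms cation pores, went from 43.2 ± 7.85 to 3.95 ± 0.542 TPM (log2 difference -3.15 with SE 0.138, adjusted p = 7.14e-09). Occludin (OCLN) went from 16.6 ± 0.977 to 8.48 ± 0.312 TPM (log2 difference -0.89, adjusted p = 1.11e-05), CLDN3 from 6.84 to 2.74 TPM and the polarity protein CRB3 from 7.40 to 2.36 TPM. The 1 higher gene, CLDN12, went from 14.4 to 19.2 TPM (adjusted p = 0.0177), a call lost without A549 replicate 2 (adjusted p = 0.0696), LB DMSO replicate 1 (0.0702) or LB DMSO replicate 3 (0.0534). Of 13 adherens junction genes, 5 were lower, 1 was higher and 7 did not pass (median -0.16). The lower call of CTNNA1 was lost in 5 of 23 alternatives, reaching 0.11 without LB DMSO replicate 2. That of NECTIN1 was lost in 2 of 23, reaching 0.0631 without LB DMSO replicate 3. The higher gene was JUP, plakoglobin, which serves both adherens junctions and desmosomes and went from 142 ± 33.9 to 210.4 ± 7.94 TPM (log2 difference 0.59 with SE 0.136, adjusted p = 0.00535). NECTIN3, a cell adhesion molecule, went from 27.6 to 10.1 TPM (log2 difference -1.38) and PLEKHA7, which links cadherin complexes to microtubules, from 12.9 to 6.71 TPM (log2 difference -0.85).

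Desmosomes and hemidesmosomes anchor keratin filaments at the cell surface. Of 9 desmosome genes tested, 6 were lower and 3 did not pass (median log2 difference -0.63), beside 18.2% lower among all genes. JUP, counted above with the adherens junction genes, was not among these 9 and was higher. The desmosomal cadherin DSG2 went from 41.8 ± 3.08 to 20.0 ± 0.566 TPM (log2 difference -1.02 with SE 0.0687, adjusted p = 3.16e-07) and the plaque protein PKP2 from 8.59 ± 1.42 to 1.08 ± 0.0666 TPM (log2 difference -2.19, adjusted p = 1.57e-07). DSP, desmoplakin, which binds keratin to the plaque, measured 14.9, 12.1 and 13.7 TPM in A549 and 17.2, 13.7 and 16.2 TPM in LB, with overlapping groups, and did not pass. Of 10 hemidesmosome and basal adhesion genes, 5 were lower, 1 was higher and 4 did not pass (median -0.19). ITGB4, the integrin of hemidesmosomes, went from 61.1 ± 11.9 to 9.40 ± 2.22 TPM (log2 difference -2.58 with SE 0.180, adjusted p = 4.28e-07), while its partner ITGA6 went from 27.6 to 17.1 TPM (log2 difference -0.67). LAMA3, a laminin chain, went from 9.40 to 14.9 TPM (adjusted p = 0.0208), a call lost without A549 replicate 2 (adjusted p = 0.0756), LB DMSO replicate 1 (0.0763) or LB DMSO replicate 2 (0.0539).

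Transcription factors of the epithelial programme moved in both directions. Each count in this paragraph stands beside 14.2% higher and 18.2% lower among all genes tested. Of 9 epithelial transcription and splicing factors tested, 6 were lower, 2 were higher (GRHL3 and FOXA1) and 1 did not pass (median log2 difference -0.52). The FOXA1 call was lost in 6 of 23 alternatives, reaching an adjusted p of 0.119 without A549 replicate 2. The lower call of KLF4 was lost in 1 of 23, with only these 2 groups fitted (0.0504). GRHL3, a grainyhead factor of barrier epithelia, went from 1.53 ± 0.491 to 15.8 ± 1.33 TPM (log2 difference 2.75 with SE 0.153, adjusted p = 6.16e-08). EHF went from 10.2 to 1.48 TPM (log2 difference -2.17) and KLF5 from 46.4 to 22.3 TPM (log2 difference -1.04). Of 7 E-cadherin repressors, 2 were higher, 3 were lower and 2 did not pass (median 0.14). SNAI1 went from 1.75 ± 0.495 to 9.02 ± 1.43 TPM (log2 difference 1.87 with SE 0.160, adjusted p = 2.67e-06) and TWIST1 from 2.72 ± 0.527 to 9.31 ± 1.39 TPM (log2 difference 1.47, adjusted p = 9.68e-06). TCF4 went from 6.11 to 1.01 TPM and TWIST2 from 11.8 to 6.23 TPM. ZEB1 measured 8.19 to 10.96 TPM in A549 and 8.96 to 12.6 TPM in LB and did not pass. SNAI2, CDH3, ESRP1 and GRHL2 were below the 1 TPM limit and not tested. N-cadherin (CDH2), which takes the place of E-cadherin in many mesenchymal cells, was lower as well, at 18.9, 25.7 and 18.8 TPM in A549 and 1.09, 0.91 and 0.72 TPM in LB (log2 difference -3.53, adjusted p = 6.98e-09). Of 10 other intermediate filament genes, 4 were higher (NES, NEFL, INA and SYNM), 5 were lower and 1 did not pass (median -0.08). The NEFL call was lost in 5 of 22 alternatives, reaching 0.0880 without LB DMSO replicate 3. The lower call of PRPH was lost in 4 of 19, reaching 0.121 without LB DMSO replicate 1. Vimentin (VIM) went from 1006 ± 164 to 807 ± 6.92 TPM (log2 difference -0.30, adjusted p = 0.0133), a call lost when only these 2 groups were fitted (adjusted p = 0.0692).

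**Figure D5:**
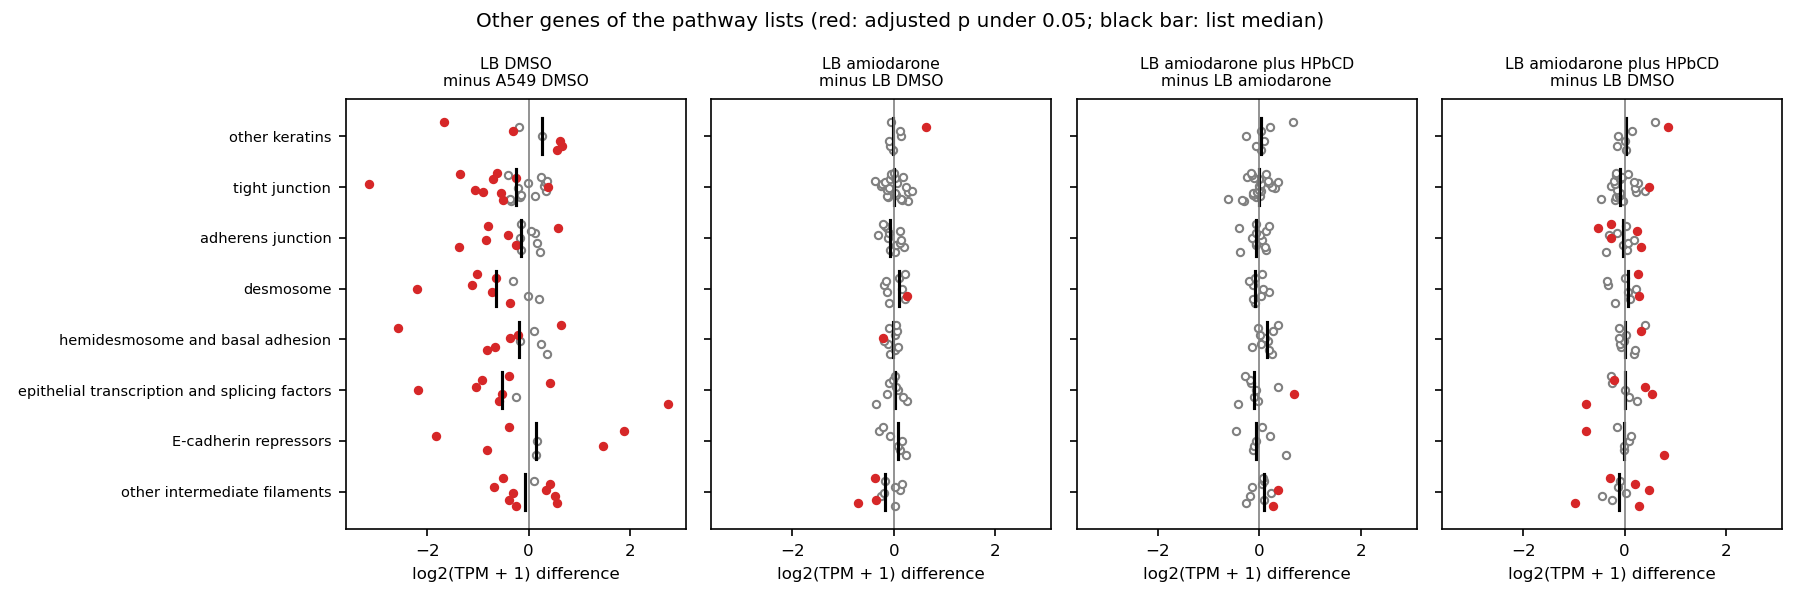
Log2(TPM + 1) differences (horizontal axes) of the tested genes of 8 lists (vertical axis, without the 10 members) in the 4 comparisons; red points have an adjusted p under 0.05 and black bars are list medians. For LB DMSO minus A549 DMSO the desmosome median is -0.63 and no gene of the desmosome list is called higher. JUP, which also serves desmosomes, is plotted with the adherens junction genes and is called higher. In the 3 comparisons within LB cells most points are open.

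Amiodarone changed 1 of the 10 genes in LB cells. KRT19 measured 50.0, 59.0 and 45.1 TPM with vehicle and 97.9, 124 and 84.7 TPM with amiodarone. Every treated library lay above every vehicle library, and the log2 difference was 0.97 (SE 0.165, adjusted p = 0.00355). Of all genes tested, 4.90% were called higher and 3.72% lower in this comparison, and 1 of 10 higher is near that background. The KRT19 call held in all 23 alternatives. KRT19 nevertheless stayed below every A549 DMSO library, the lowest of which measured 196.0 TPM. Alveolar marker sums were lower with the drug: type II from 1388 to 1551 TPM with vehicle against 1193 to 1306 TPM, and type I from 264.6 to 316 TPM against 227 to 264.5 TPM. Their part in the KRT19 difference was not tested.

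The other 9 genes did not pass, with overlapping groups in each. Their log2 differences lay between -0.24 (EPCAM, 95% interval -0.69 to 0.21) and 0.08 (CLDN1, 95% interval -0.09 to 0.25). For the abundant keratins the intervals were narrow: KRT8 differed by -0.03 (95% interval -0.17 to 0.10), KRT18 by -0.11 (-0.26 to 0.04), KRT7 by -0.11 (-0.27 to 0.05) and KRT81 by -0.10 (-0.23 to 0.03). CDH1 measured 15.8, 13.7 and 13.5 TPM with the drug against 16.6, 16.8 and 14.9 TPM with vehicle (adjusted p = 0.614). The median over the 10 genes was -0.10, beside -0.0027 over all genes tested.

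Few of the other genes passed under amiodarone, where 4.90% of all genes tested were called higher and 3.72% lower. At these shares lists of this size would hold few calls in any case. No tight junction gene (0 of 23), adherens junction gene (0 of 13), epithelial factor (0 of 9) or E-cadherin repressor (0 of 7) was called by limma. At an unadjusted p under 0.05 these lists held 1, 2, 2 and 1 genes. The share of all genes under that unadjusted limit was not computed. Among other keratins, 1 of 7 was higher: KRT20, a type I keratin of gut epithelium with a mean of 1.42 TPM over the 12 libraries (log2 difference 0.64, adjusted p = 0.0355), named after its values were seen. Among desmosome genes, 1 of 9 was higher, PERP, from 56.3 ± 3.91 to 67.1 ± 1.44 TPM (adjusted p = 0.0381). Among basal adhesion genes, 1 of 10 was lower, the tetraspanin CD151, from 366 ± 18.6 to 316 ± 13.0 TPM (adjusted p = 0.0457). These calls did not hold throughout: PERP reached an adjusted p of 0.138 without LB DMSO replicate 3 and CD151 of 0.157 without LB DMSO replicate 2, and they were lost in 10 and 14 of 23 alternatives. That of KRT20 was lost in 7 of 22, reaching 0.118 without LB DMSO replicate 1. Of 10 other intermediate filament genes, 3 were lower: the nuclear lamins LMNB1 and LMNB2 and nestin (NES). LMNB2 went from 71.5 ± 2.02 to 55.2 ± 4.19 TPM (log2 difference -0.37 with SE 0.0571, adjusted p = 0.00195), and that call and the NES call (adjusted p = 0.00605) held in every alternative that tested them. The LMNB1 call (adjusted p = 0.0429) was lost in 10 of 23 alternatives and reached 0.155 without LB DMSO replicate 3.

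When HPbCD was present with amiodarone, CDH1 was lower than with amiodarone alone. It measured 15.8, 13.7 and 13.5 TPM with amiodarone and 7.29, 11.4 and 8.45 TPM with both. The groups did not overlap, and the log2 difference was -0.63 (SE 0.158, adjusted p = 0.0468). Of all genes tested, 2.71% were called higher and 1.36% lower. The CDH1 call stood close to the threshold and held in 8 of 23 alternatives, with adjusted p from 0.0164 to 0.177. It was kept without A549 replicate 2, A549 replicate 3 or HPbCD replicate 2 and lost without any of the other 9 libraries, most with HPbCD replicate 1 left out (log2 difference -0.50, adjusted p = 0.177).

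Summed marker levels of 5 of 8 cell types moved without overlap in the same comparison, 3 of them lower and 2 higher with HPbCD. The summed level of 6 ciliated cell markers was 18.8 to 20.7 TPM with amiodarone and 9.75 to 12.6 TPM with both, largely TPPP3 (14.4 and 7.13 TPM), and that of 8 fibroblast markers was 15.5 to 20.7 and 9.22 to 10.2 TPM. Only 2 of 6 and 3 of 8 of these markers reached 1 TPM with both agents, and FOXJ1, which defines ciliated cells, was at 0.24 TPM. The leukocyte sum was 1.23 to 2.60 TPM with amiodarone and 0.98 to 1.13 TPM with both. The alveolar sums were higher with both agents: 10 type II markers summed to 1193 to 1306 TPM with amiodarone and 1345 to 1606 TPM with both, and 10 type I markers, of which HOPX, PDPN, CLIC5 and AQP5 were at 0, to 227 to 264 and 274 to 304 TPM. Of the type I markers, mainly GPRC5A rose (mean 65.7 TPM with amiodarone and 112 TPM with both). CAV1 (107 and 106 TPM), CAV2 and EMP2 changed little, and the low AGER (2.78 and 2.58 TPM) and RTKN2 (0.79 and 0.60 TPM) were slightly lower. The part of all these marker sums in the CDH1 difference was not tested.

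The other 9 genes did not pass when HPbCD was added. KRT18 measured 1293, 1291 and 1121 TPM with amiodarone and 1125, 1158 and 991 TPM with both, with overlapping groups (log2 difference -0.18, 95% interval -0.33 to -0.03, adjusted p = 0.187). KRT80 measured 19.9, 19.3 and 17.97 TPM with amiodarone and 23.4, 22.5 and 21.0 TPM with both. These groups did not overlap, but the log2 difference of 0.22 (SE 0.131) did not pass (adjusted p = 0.431). KRT19 measured 116, 132 and 99.2 TPM with both, overlapping the amiodarone libraries (log2 difference 0.18, 95% interval -0.17 to 0.54). TJP1 measured 46.4, 40.4 and 34.5 TPM with both and overlapped as well (log2 difference -0.09). The median over the 10 genes was -0.06, beside -0.0081 over all genes tested.

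KLF4, a zinc finger factor of epithelial differentiation, was the 1 epithelial factor of 9 that was higher with HPbCD. It measured 5.51, 5.88 and 6.20 TPM with amiodarone and 9.78, 9.75 and 10.3 TPM with both (log2 difference 0.68, SE 0.130, adjusted p = 0.0127). That call was lost without amiodarone replicate 1 (adjusted p = 0.0524) or HPbCD replicate 3 (0.0551). Among other intermediate filaments 2 of 10 were higher, INA from 36.7 to 47.8 TPM (adjusted p = 0.0166) and LMNA from 355 to 426 TPM (adjusted p = 0.0301). Both of these were also lost without single libraries, INA reaching 0.0804 and LMNA 0.127 without HPbCD replicate 1. No gene of the tight junction, adherens junction, desmosome, basal adhesion, other keratin or repressor lists was called by limma in this comparison. At an unadjusted p under 0.05 they held 4, 5, 1, 1, 0 and 2 genes. Beside the calls of this paragraph, 2.71% of all genes tested were called higher and 1.36% lower.

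Against vehicle, LB cells with both agents had more KRT19 and less KRT18 and CDH1. The comparison shares its vehicle libraries with that of amiodarone alone and its treated libraries with that of added HPbCD, so the 3 are not independent. Of all genes tested, 10.1% were called higher and 7.81% lower, beside 1 higher and 2 lower of the 10 genes. KRT19 rose from 50.0, 59.0 and 45.1 TPM to 116, 132 and 99.2 TPM (log2 difference 1.15 with SE 0.165, adjusted p = 0.000469). CDH1 went from 16.6, 16.8 and 14.9 TPM to 7.29, 11.4 and 8.45 TPM (log2 difference -0.78 with SE 0.158, adjusted p = 0.00465). Both calls held in all 23 alternatives. In the same comparison the ciliated marker sum was 20.4 to 23.3 TPM with vehicle and 9.75 to 12.6 TPM with both agents, the fibroblast sum 15.2 to 18.2 and 9.22 to 10.2 TPM, and the leukocyte sum 2.51 to 3.17 and 0.98 to 1.13 TPM, none overlapping. Their part in these differences was not tested. KRT18 went from 1345, 1385 and 1256 TPM to 1125, 1158 and 991 TPM without overlap (log2 difference -0.29, SE 0.0682, adjusted p = 0.0126). Its call was lost narrowly without LB DMSO replicate 2 (log2 difference -0.26, adjusted p = 0.0521) or HPbCD replicate 3 (-0.22, adjusted p = 0.0530).

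KRT8 did not follow KRT18 past the test. It measured 1633, 1653 and 1461 TPM with both agents, overlapping the vehicle libraries (log2 difference -0.08, 95% interval -0.22 to 0.06). The KRT8 to KRT18 ratio was 1.25, 1.27 and 1.25 with vehicle, 1.33, 1.28 and 1.36 with amiodarone, and 1.45, 1.43 and 1.47 with both. All 3 libraries with both agents lay above every other library of the study, A549 included. This ratio was computed from the same values as the tests above and carries no test of its own. KRT7 measured 1641, 1701 and 1601 TPM with both agents, below every vehicle library, with a log2 difference of -0.18 (adjusted p = 0.113) that passed without A549 replicate 2 (adjusted p = 0.0258). CLDN1 measured 43.3, 41.1 and 43.8 TPM, above every vehicle library, with a log2 difference of 0.17 (adjusted p = 0.147) that also passed without A549 replicate 2 (adjusted p = 0.0378). EPCAM measured 2.39, 1.39 and 1.13 TPM and overlapped the vehicle libraries (log2 difference -0.40, 95% interval -0.85 to 0.04).

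Adherens junction genes went both ways in the comparison of both agents with vehicle. Of 13 tested, 3 were lower (JUP, NECTIN2 and CTNND1), 2 were higher (NECTIN3 and ACTN1) and 8 did not pass (median log2 difference -0.03), beside 7.81% lower and 10.1% higher among all genes. The catenins CTNNB1 and CTNNA1, which link E-cadherin to actin, were among those that did not pass (log2 difference 0.05 and -0.03, adjusted p = 0.574 and 0.841), and both are named after their values were seen. JUP measured 219, 205 and 206 TPM with vehicle and 141, 159 and 138 TPM with both (log2 difference -0.53, SE 0.136, adjusted p = 0.0186). CTNND1, p120-catenin, which stabilises E-cadherin at the membrane, went from 84.9 ± 4.52 to 70.6 ± 3.35 TPM (log2 difference -0.26, adjusted p = 0.0158). Without single libraries the JUP call was lost in 3 fits (LB DMSO replicate 1, adjusted p = 0.0645; HPbCD replicate 1, 0.0626; HPbCD replicate 3, 0.0656), and that of CTNND1 also in 3 (LB DMSO replicates 1 and 3, 0.0519 and 0.0660; HPbCD replicate 3, 0.0670). The NECTIN3 call (adjusted p = 0.0490) was lost in 14 of 23 alternatives, reaching 0.155 without LB DMSO replicate 2. NECTIN2 was lost in 3, reaching 0.0820 without HPbCD replicate 3, and ACTN1 in 2, reaching 0.0547 without LB DMSO replicate 3. The repressor SNAI1 was lower, at 8.81, 7.71 and 10.6 TPM with vehicle and 5.07, 4.14 and 5.51 TPM with both (log2 difference -0.76, SE 0.160, adjusted p = 0.00613), while ZEB2, named after its values were seen, was higher (log2 difference 0.77, adjusted p = 0.00509). The remaining 5 of 7 repressors did not pass.

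Of 23 tight junction genes only CLDN12 passed, from 19.2 ± 1.82 to 27.4 ± 3.91 TPM (log2 difference 0.49 with SE 0.111, adjusted p = 0.00973). Each count in this paragraph stands beside 10.1% higher and 7.81% lower among all genes, and single calls in lists this short lie near that share. Of 9 desmosome genes, which did not include the lower JUP, PERP and DSG2 were higher. Of 10 basal adhesion genes ITGA3 was higher, from 204 ± 6.90 to 256 ± 9.22 TPM (adjusted p = 0.0213, and 0.0751 without LB DMSO replicate 3). Leaving out single libraries also ended the DSG2 call in 4 fits (adjusted p up to 0.0821 without HPbCD replicate 1) and that of PERP in 2 (up to 0.0561 without HPbCD replicate 1). Among the epithelial factors, KLF4 and KLF5 were higher, and GRHL3 was among those that were lower. KLF5 was lost in 3 such fits (up to 0.0573 without LB DMSO replicate 3) and KLF4 in 1 (0.0574 without LB DMSO replicate 2). GRHL3 measured 15.9, 17.1 and 14.4 TPM with vehicle and 8.74, 10.4 and 7.64 TPM with both (log2 difference -0.77, SE 0.153, adjusted p = 0.00450). KRT20 was the 1 other keratin of 7 to pass (log2 difference 0.86, adjusted p = 0.00381). Of 10 other intermediate filaments, INA, LMNA and SYNM were higher and NES and LMNB2 lower, and INA rose from 34.0 ± 2.93 to 47.8 ± 2.99 TPM (log2 difference 0.48, adjusted p = 0.000879). The SYNM call (adjusted p = 0.0281) was lost in 5 fits without 1 library, reaching 0.0954 without LB DMSO replicate 3.

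Within groups most pairs of the 10 genes were weakly related. Over the 12 libraries, after each group's mean was removed, the Pearson correlation of 30 of the 45 pairs was under 0.5 in size (median 0.18, lowest -0.72, highest 0.94), and that of KRT7 and TJP1 was 0.06. Toward the ends of that range, KRT8 and KRT18 had a correlation of 0.94, KRT7 and KRT80 of 0.91, KRT7 and KRT19 of 0.89, and CDH1 and CLDN1 of -0.72. These describe 12 libraries that share a TPM total, and A549 replicate 2 is far from its group in most of these genes. By pattern over the 12 libraries, with group means kept, the genes most like KRT8 in log2(TPM + 1) were NPY4R, CLDN2, IGSF3 and MALT1 (Pearson r 0.994 to 0.993), all lower in LB cells than in A549. Those most like KRT81 were TESC, CCNJL, HAS2 and ID3 (r 0.980 to 0.972). CDH1 was most similar to TRIP10, TST, ZNF358 and C9orf3 (r 0.966 to 0.962), and CLDN1 to SPRYD7, KDM1B, IER2 and SRF (r 0.986 to 0.974). With 4 groups, such values rest mostly on the group means and are descriptions.

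In order of mean level, KRT8, KRT18, KRT7 and KRT81 led in A549 DMSO (3994 ± 203, 3211 ± 88.0, 2581 ± 307 and 2156 ± 142 TPM), and the ranges of neighbours in that order did not overlap. In LB DMSO the order was KRT81, KRT7, KRT8 and KRT18 (3217 ± 72.9, 1869 ± 120, 1674 ± 92.9 and 1329 ± 66.0 TPM), again without overlap between neighbours. The order of means was the same with amiodarone and with both agents, but there the ranges of KRT7 and KRT8 overlapped. KRT19, KRT80, TJP1, CLDN1, CDH1 and EPCAM followed in A549 DMSO (233, 71.1, 61.2, 28.8, 28.6 and 9.46 TPM). TJP1 overlapped KRT80 there, and CDH1 overlapped CLDN1. In LB DMSO the order below the abundant keratins was KRT19, TJP1, CLDN1, KRT80, CDH1 and EPCAM (51.4, 42.6, 37.7, 20.7, 16.1 and 2.43 TPM), where TJP1 overlapped both KRT19 and CLDN1.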

How the data were processed

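Expression was measured by RNA sequencing in 12 libraries of A549 and LB cells (4 groups of 3, grouped by line and treatment as labelled). The libraries were made with a stranded mRNA kit, per the labels' protocols, and per the submitters' processing notes STAR 2.7.3a, RSEM 1.3.1 and the build GRCh38 were used; their annotation and strand setting are not given in the sources used here. The authors deposited 1 table of TPM per gene symbol (57189 rows, 37 without values). TPM keeps no read depth, so no counting error, interval or floor from counts is given, and RSEM's division of reads between similar genes affects keratins most.

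Values were taken as log2(TPM + 1). Genes averaging at least 1 TPM (13968) were fitted with limma 3.58.1 (R 4.3.3; all 4 groups, 8 residual degrees of freedom, mean-variance trend). P-values (two-sided) were Benjamini-Hochberg adjusted over those genes in each of 4 comparisons, with a threshold of 0.05. The fit was tested on simulated data. Alternatives were pseudocounts of 0.1 and 5, no filter or a mean of 5 TPM, median-of-ratios and quantile scaling, no trend, robust variance, only the 2 groups compared, a replicate block, each library left out, and near-identical copies summed, the last chosen after seeing the data. The 10 genes, the lists and the tests were chosen with earlier results of these data known. Genes of 8 lists were named when past the test with groups that do not overlap and a higher group averaging at least 5 TPM (up to 4 per list and comparison), and VIM, CDH2, CDH3, SNAI1, SNAI2, ZEB1, ESRP1, GRHL2, DSP and OCLN whatever their values; some that passed were left out for length. Similar genes were the 4 with the highest Pearson correlation and a mean of at least 5 TPM. Positions and shared 100-base windows came from GENCODE 29, promoters from RefSeq.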

Additional observations from a re-analysis of the deposited data

How the results depend on the processing

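Over the 10 genes in 4 comparisons, 885 of the differences recomputed under an alternative kept their direction and side of the threshold, 17 lost the call, 5 gained it and 9 changed sign. LB DMSO against A549 DMSO kept 10 of 10 calls throughout, except that a filter at a mean of 5 TPM did not test EPCAM. For HPbCD added to amiodarone, 0 of 10 genes were called with a pseudocount of 5, no filter, quantile normalization, no trend, only the 2 groups compared or a replicate block, and 0 to 1 with 1 library left out; the call in question is CDH1, with an adjusted p of 0.0619, 0.127, 0.0570, 0.0739, 0.0768 and 0.0788 in that order. For both agents against vehicle, 5 genes were called with only the 2 groups fitted and 2 to 5 with 1 library left out. Counts over all genes ranged with 1 library left out from 628 to 1497 for amiodarone (1204 in all 12) and from 280.0 to 825 for added HPbCD (568 in all 12).

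Signs changed only among differences that did not pass. KRT8 under amiodarone was 0.00043 with quantile normalization. With 1 library left out the log2 difference under amiodarone ranged from -0.077 to 0.014 for KRT8 and from -0.068 to 0.083 for TJP1. For added HPbCD it ranged from -0.10 to 0.0096 for KRT8, from -0.00086 to 0.11 for KRT81 and from -0.20 to 0.013 for TJP1, and for both agents against vehicle from -0.18 to 0.028 for TJP1.

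Replicate numbers were given in the titles. Deviations of same-numbered libraries from their group means correlated at -0.027 to 0.212, not above 0.1 in every pair, so the numbers were not taken to pair libraries. With a replicate block, 10, 1, 0 and 4 genes were called in the order of the comparisons above (4581, 1198, 606 and 2558 over all genes), the added call being KRT7 for both agents against vehicle (adjusted p = 0.0307). Read depth is unknown, and with 3 libraries a group the lowest members, such as EPCAM, have the widest intervals. No scaling moved the median of all genes by more than 0.1 on the log2 scale.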
